A study of Mus musculus with 16 samples.

Results

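The 46 genes described here encode the machinery of mitosis, and they were chosen by symbol from a list made with earlier results of these data known, by a rule that uses no measured value. All 46 were found by Ensembl identifier among the 39179 genes in the files, and all 46 were among the 13305 genes that passed the filter on low counts and were tested. RNA was sequenced from 16 samples of bone marrow derived mast cells (BMMCs), which were grown for 4 weeks with kit ligand and IL3 from the bone marrow of male C57BL/6 mice aged 8 to 10 weeks. The cells were either wild type (PEP+/+) or lacked the tyrosine phosphatase PEP (PEP−/−), the product of Ptpn22, and every sample was sensitized with IgE at 0.05 µg/ml for 3 h, the dose that the sample labels give. The methods of the study name another IgE dose. Within each genotype the cells received IgE alone (IgE), IgE followed by the antigen dinitrophenol at 200 ng/ml for 1 h (IgE DNP), dexamethasone (DEX) at 100 nM for 8 h with IgE (IgE DEX), or all of these (IgE DNP DEX), so that no sample was free of IgE. Per the study's methods, the antigen was given as dinitrophenyl-bovine serum albumin. Each of the 8 conditions has 2 replicates. One replicate of each condition carries a number in the labels (set 1 here) and the other a letter (set 2 here). The labels call them biological replicates and do not say whether they came from separate cultures or animals, so p-values measure the spread between these samples.

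In mitosis the cell condenses its replicated chromosomes, attaches them to a spindle of microtubules, and separates them before cytokinesis divides the cell. Entry is driven by cyclin B with the kinase CDK1, activated by CDC25 phosphatases, while the kinases PLK1, Aurora A and Aurora B build and correct the spindle. The spindle checkpoint (BUB, MAD and TTK proteins) holds back the anaphase-promoting complex with its activator CDC20 until every kinetochore is attached, after which separase cuts cohesin. Most of these genes are transcribed in G2 and M phase, so in a bulk sample their mRNA depends on the share of dividing cells. Fewer cells in G2 and M phase and less mRNA per such cell cannot be told apart here. BMMCs proliferate in culture under kit ligand and IL3, and DEX acts on transcription through the glucocorticoid receptor.

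The total count per sample lay between 8612531 and 22143526, of which 18829 to 67144 reads fell on the 46 genes (0.176% to 0.455% of counts). All 14 mast cell markers examined were above 1 CPM (normalized counts scaled to a common library size) in the median library, with Kit at 2740 CPM and Cpa3 at 41000 CPM. Cd3e, Epx and Cd209a, which define T cells, eosinophils and a class of dendritic cells, had no read in any library. Other lineage markers were above 1 CPM in the median library. These were Cd68 (22.4 CPM), Lyz2 (5.19 CPM) and Adgre1 (3.05 CPM) of macrophages, and Itgax (5.24 CPM), on the dendritic cell list with Cd209a. Mcpt8 (28.2 CPM), on the basophil and eosinophil list, Hbb-bt (2.51 CPM) and the integrin gene Itga2b (2950 CPM) were as well. Their part in the results was not tested. Ptpn22 lay between 0 and 3.03 CPM in the 8 PEP−/− libraries and between 11.3 and 175 CPM in the 8 PEP+/+ libraries. The glucocorticoid targets Tsc22d3 and Fkbp5 were higher in each of the 8 libraries with DEX than in any library without it, and Il13 and Tnf did the same for DNP.

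The promoters of 37 of the 46 genes were found in the RefSeq table for GRCm38.p6 as windows from 250 bases before to 50 bases after the annotated start. They are shown because genes of G2 and M phase share promoter letters known as the cell cycle genes homology region (CHR), which is bound by the MuvB complexes that silence and then activate these genes, often with CCAAT letters bound by NF-Y upstream. The letters TTTGAA or TTCGAA were searched on both strands for the CHR (the latter reads the same on both strands), and CCAAT on both strands. The searches use different letters, and matches of the CHR and of CCAAT may share a base at their edges. A CHR match was present in 29 of the 37 genes (78.4%), against 20.2% of 17492 protein-coding genes, 17.6% of the 34 S-phase genes with a window and 47.5% of 80 other mitosis genes with one. Within 50 bases of the start on either side the shares were 70.3%, 5.08%, 5.88% and 33.8% in the same order. The start used for a window was exactly the RefSeq gene's outermost start in 18 of the 40 windows of these genes. CCAAT was present in 73.0% of the 37 genes, 42.3% of protein-coding genes, 58.8% of the S-phase genes and 61.3% of the other mitosis genes. Both were present in 1 window in 67.6%, 8.22%, 14.7% and 33.8%. A match describes letters and is not a measured binding site.

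The windows below run from 120 bases before to 50 bases after the start, 5′ to 3′, with CHR and CCAAT letters of either strand in capitals. Cdk1, Ndc80, Top2a and Cenpa have the smallest p-values for DEX among the genes with a CHR match, and Plk1 and Aurka were added after their values were seen because they were lower after DNP. The windows lie at chr10:69352863-69353032 (minus strand), chr17:71526808-71526977 (minus), chr11:99024140-99024309 (minus), chr5:30666766-30666935 (plus), chr7:122159315-122159484 (plus) and chr2:172370521-172370690 (minus).
Cdk1: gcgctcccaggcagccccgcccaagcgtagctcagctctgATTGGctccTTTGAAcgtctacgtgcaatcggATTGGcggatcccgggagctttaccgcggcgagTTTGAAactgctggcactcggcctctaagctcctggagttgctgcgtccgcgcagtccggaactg
Ndc80: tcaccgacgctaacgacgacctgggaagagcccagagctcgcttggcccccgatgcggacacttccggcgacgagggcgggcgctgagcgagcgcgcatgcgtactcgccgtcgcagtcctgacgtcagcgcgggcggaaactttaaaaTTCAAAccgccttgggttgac
Top2a: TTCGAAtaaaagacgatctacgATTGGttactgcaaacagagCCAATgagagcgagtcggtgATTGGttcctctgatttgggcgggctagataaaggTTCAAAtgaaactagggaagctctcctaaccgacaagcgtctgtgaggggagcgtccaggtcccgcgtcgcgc
Cenpa: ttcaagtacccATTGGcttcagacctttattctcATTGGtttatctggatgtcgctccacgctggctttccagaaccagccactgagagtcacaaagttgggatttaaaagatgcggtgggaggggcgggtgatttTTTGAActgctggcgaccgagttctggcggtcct
Plk1: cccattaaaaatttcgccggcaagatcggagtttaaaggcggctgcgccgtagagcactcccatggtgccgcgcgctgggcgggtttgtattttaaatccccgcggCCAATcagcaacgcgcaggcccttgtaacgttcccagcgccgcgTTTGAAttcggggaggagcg
Aurka: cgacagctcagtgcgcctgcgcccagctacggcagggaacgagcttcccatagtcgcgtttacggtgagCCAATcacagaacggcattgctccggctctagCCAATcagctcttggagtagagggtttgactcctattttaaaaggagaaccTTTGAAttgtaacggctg
In Cdk1 the 2 CHR matches begin 71 and 15 bases before the start, and in Plk1 and Aurka the single match lies past it. Ndc80 has a CHR match and no CCAAT in its window, and Top2a has several of both. The 29 genes with a CHR match had a median log2 fold change of -0.30 after DNP without DEX and -0.45 under DEX. The 8 genes without one had -0.11 and -0.24, and the 9 genes with no window -0.26 and -0.29. For the change by DEX the medians were -0.17, -0.11 and -0.08 in the same order. After DNP without DEX the ranges overlapped (-1.12 to 0.40 with a match, -0.20 to 0.32 without), and the difference was not tested.

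Per length of exon, the highest level among the 46 genes over the 16 libraries was that of Ccnb2, a cyclin B, at 61.1 ± 8.71 RPKM (CPM divided by the kilobases of annotated exon, SD, n = 16), and the lowest that of the checkpoint kinase Ttk at 2.25 ± 0.936 RPKM. Cdc20, the activator of the anaphase-promoting complex, followed Ccnb2 at 30.3 ± 3.97 RPKM, and then came Mki67 at 27.8 ± 4.72 RPKM and the condensin subunit Smc4 at 26.6 ± 4.31 RPKM. These last 3 did not differ beyond their spread. Mki67, which encodes the proliferation marker Ki-67, stood at 324 ± 19.7 CPM after IgE and at 238 ± 56.1 CPM after IgE DNP DEX (SD, n = 4, both genotypes).

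The 2 replicate sets differed in most of these genes. The summed level of the 46 genes was lower in set 2 than in set 1 in each of the 8 conditions, for example 2737 against 3862 CPM in PEP+/+ cells after IgE and 2140 against 2644 CPM in PEP−/− cells after IgE DNP DEX. In a fit with the set as a term, 38 of the 46 genes were lower in set 2 and 2 were higher. Of all 13305 genes 4279 (32.2%) were lower and 4184 higher, 63.6% in either direction. The median log2 difference was -0.53 over the 46 genes, -0.73 over 41 genes of DNA replication and S phase, and 0.01 over all genes. The condensin gene Smc2 (-1.32, 109 against 42.7 CPM) and the centriole kinase gene Plk4 (-1.27, 49.6 against 20.5 CPM) differed most, while the securin gene Pttg1 (0.60) and Cenpa (0.23), which encodes the centromeric histone H3, were higher in set 2. This comparison was chosen after the data were seen, and what differed between the sets is not given in the labels. The study's comparisons are therefore given both without and with the replicate set as a block. Where 1 library is left out below, the fit has no block, and its condition keeps only the other set. The set difference then enters the change, so these ranges do not show the weight of that library alone.

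**Figure D1:**
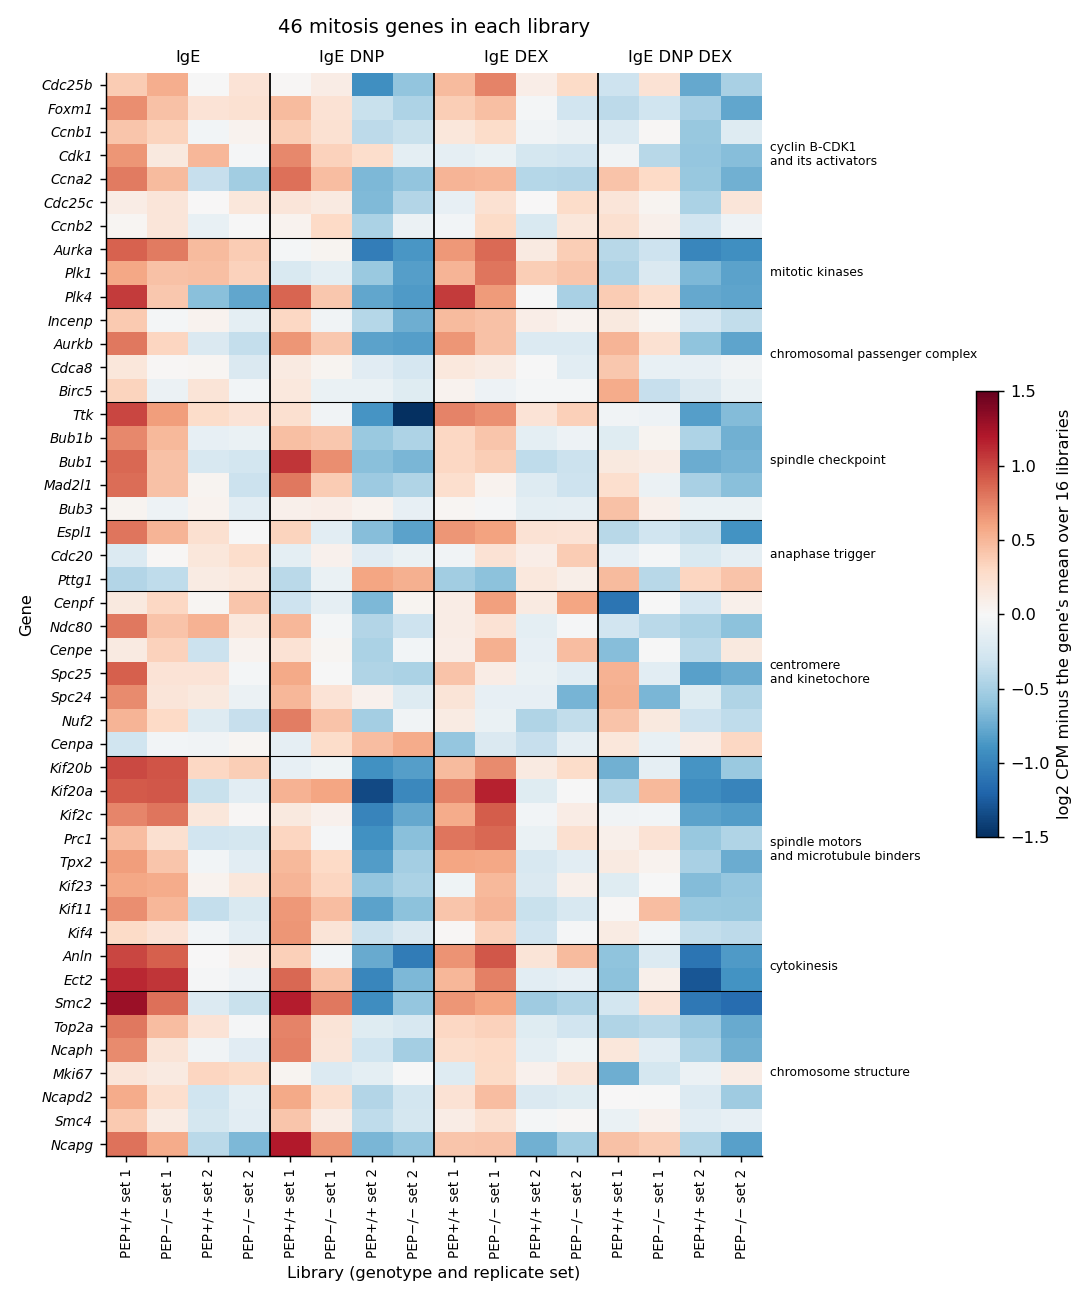
Heat map of log2 CPM in each of the 16 libraries (columns, by treatment, replicate set and genotype) for the 46 genes (rows, by role), each minus the gene's mean over the libraries, with the colour scale ending at 1.5 on either side. The 2 libraries of set 1 lie left of the 2 of set 2 within each treatment and are mostly redder, and Aurka, Plk1, Kif20b, Anln and Ttk are bluer in both treatments with DNP.

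**Figure D2:**
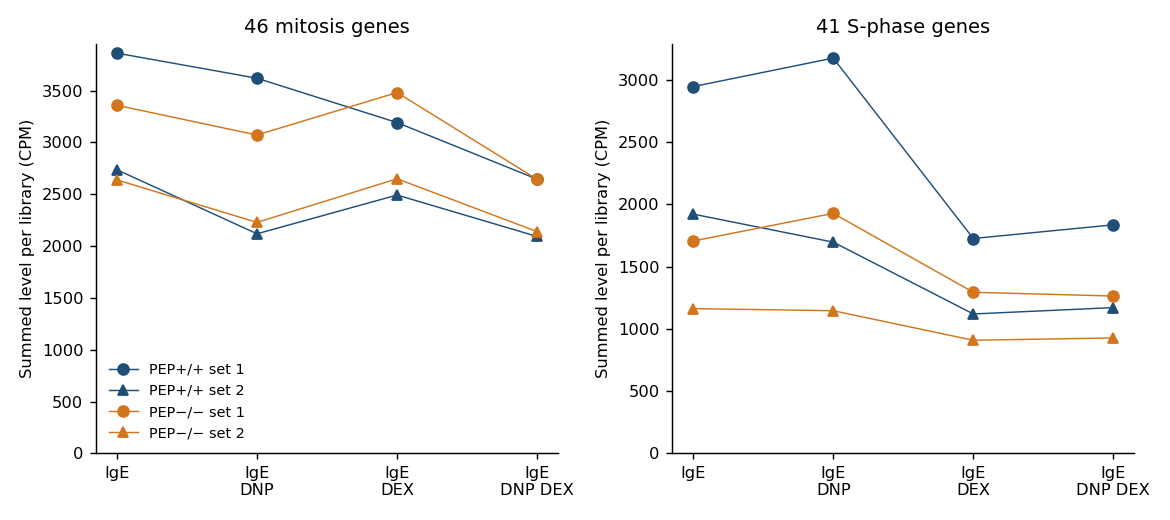
Summed CPM of the 46 mitosis genes (left) and of 41 S-phase genes (right) per library, with colour for genotype, circles for set 1 and triangles for set 2, and lines joining libraries of the same genotype and set. For the mitosis genes each set 2 library lies below the set 1 library of its condition, and the 4 IgE DNP DEX libraries span 2093 to 2646 CPM.

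The first comparison asks how antigen changed these genes in sensitized BMMCs, 1 h after DNP. Without DEX, 3 of the 46 genes fell and none rose (edgeR's quasi-likelihood test, Benjamini-Hochberg adjusted p under 0.05 over all genes), and these were Plk1, Aurka and Kif20b. Of all genes, 7.58% were lower and 9.07% higher. With the replicate block, 17 of the 46 fell and 1 rose, against 19.3% and 18.6% of all genes. The median log2 fold change was -0.19 over the 46 genes, with 39 of 46 below 0, and 0.00 over all genes. With 1 library left out the median over the 46 genes lay between -0.54 (without PEP+/+ IgE DNP set 1) and -0.04 (without PEP+/+ IgE DNP set 2).

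Plk1 (ENSMUSG00000030867, chromosome 7, 122159439 to 122169873, plus strand of GRCm38) encodes polo-like kinase 1, which acts from mitotic entry to cytokinesis. It stood at 43.6, 39.8, 39.5 and 37.1 CPM after IgE and at 24.9, 19.8, 26.4 and 16.5 CPM after IgE DNP, in the order PEP+/+ set 1, PEP+/+ set 2, PEP−/− set 1 and PEP−/− set 2, which holds for all values listed in this way. Every library with DNP lay below every library without it. The log2 fold change was -0.87 ± 0.19 (SE), a decrease of 45.3% (adjusted p = 0.00837), and the call held without each of the 8 libraries in turn, with changes from -1.07 to -0.73.

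Aurka (ENSMUSG00000027496, chromosome 2, 172356190 to 172370535, minus strand) encodes Aurora A, the kinase of the spindle poles that activates PLK1. It stood at 35.0, 26.3, 32.4 and 24.6 CPM after IgE and at 18.5, 9.23, 19.4 and 10.3 CPM after IgE DNP, again without overlap. The log2 fold change was -1.04 ± 0.29 (adjusted p = 0.0314). That call was lost without any 1 of 5 libraries, namely PEP+/+ IgE set 1, PEP+/+ IgE DNP set 2, both PEP−/− IgE libraries and PEP−/− IgE DNP set 2, where the change lay between -1.13 and -0.84.

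Kif20b (ENSMUSG00000024795, chromosome 19, 34922361 to 34975745, plus strand) encodes a kinesin of the central spindle that takes part in cytokinesis. Its level was 66.3, 41.5, 64.2 and 43.2 CPM after IgE and 30.6, 17.8, 32.0 and 18.8 CPM after IgE DNP, so it too showed no overlap. It fell by 1.12 ± 0.26 on the log2 scale (adjusted p = 0.0114), and the call was lost without PEP+/+ IgE set 1 (-0.92) or PEP−/− IgE DNP set 2 (-0.96). Ttk, the checkpoint kinase also known as MPS1, fell from 20.0, 12.1, 15.4 and 11.5 CPM to 11.8, 5.40, 9.60 and 2.92 CPM with the replicate block only (log2 fold change -1.08, adjusted p = 0.000353, against -1.004 and 0.109 without the block).

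Other genes that passed only with the block came from several roles. Anln and Ect2, which organize the contractile ring of cytokinesis, had log2 fold changes of -0.86 (block adjusted p = 0.000101) and -0.58 (0.00651). Cdc25b, a phosphatase that activates CDK1, changed by -0.62 (0.000417), and it stood at 41.4, 31.7, 46.2 and 36.6 CPM after IgE and 32.0, 16.7, 34.2 and 21 CPM after IgE DNP. Among spindle proteins Kif2c changed by -0.80 (3.5e-05), Kif20a by -0.60 (0.01), Kif23 by -0.38 (0.0259), Prc1 by -0.33 (0.0273) and Tpx2 by -0.34 (0.0226). The kinetochore genes Cenpf (-0.49, 0.0117) and Ndc80 (-0.52, 0.00343), the separase gene Espl1 (-0.69, 0.000616), the transcription factor gene Foxm1 (-0.41, 0.0105) and Incenp of the chromosomal passenger complex (-0.29, 0.0337) completed the 17 with Plk1, Aurka, Kif20b and Ttk. Without the block, several of these changes shifted with the library left out, which also leaves that condition with only the other replicate set. With 1 library left out, Kif20a lay between -1.13 and -0.13, Ect2 between -1.14 and -0.19, Prc1 between -0.68 and -0.07, Tpx2 between -0.70 and -0.04, Kif23 between -0.67 and -0.13, Incenp between -0.48 and -0.11 and Foxm1 between -0.62 and -0.22. The largest decrease of each came without PEP+/+ IgE DNP set 1, and the smallest without PEP+/+ IgE DNP set 2, except for Kif20a (PEP+/+ IgE set 1) and Ect2 (PEP−/− IgE set 1).

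Cenpa went the other way. Its level was 86.2, 102, 103 and 108 CPM after IgE and 97.0, 146, 129 and 156 CPM after IgE DNP, higher in each of the 4 pairs of the same genotype and set, with overlap between the treatments. The log2 fold change was 0.40 ± 0.16 (adjusted p = 0.115), or 0.39 with the block (0.00788), and without the block it lay between 0.23 (without PEP+/+ IgE DNP set 2) and 0.52 (without PEP+/+ IgE DNP set 1) with 1 library left out. Pttg1, the inhibitor of separase, stood at 23.1, 34.2, 24.1 and 35.0 CPM after IgE and 23.6, 47.3, 29.1 and 45.2 CPM after IgE DNP, also higher in 4 of 4 pairs (0.32 ± 0.30, adjusted p = 0.59, block 0.122) and did not pass.

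Cdk1 and Ccnb1, which form the kinase of mitotic entry, did not pass. Cdk1 stood at 104, 92.2, 72.3 and 64.6 CPM after IgE and 108, 78.8, 83.3 and 59.4 CPM after IgE DNP, a log2 fold change of -0.01 with a 95% interval from -0.37 to 0.36. Ccnb1, a cyclin B, stood at 70.1, 50.8, 66.2 and 54.4 CPM after IgE and 67.7, 39.9, 61.2 and 41.5 CPM after IgE DNP (-0.20, adjusted p = 0.635). The checkpoint gene Bub3 (0.06, 0.841), Cdc20 (-0.16, 0.507) and the survivin gene Birc5 (-0.15, 0.646) did not pass either. Mki67 lay between 303 and 345 CPM after IgE and between 238 and 284 CPM after IgE DNP without overlap, yet did not pass (-0.31, adjusted p = 0.252, block 0.0599).

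The second comparison asks what antigen did in cells already exposed to DEX, and it shares no library with the first. Under DEX, 6 of the 46 genes fell and none rose, against 5.42% of all genes lower and 7.19% higher. The 6 genes were Plk1, Aurka, Kif20b, Cenpf, Anln and Espl1, so the 3 genes of the first comparison were among them (100% of the first list and 50% of the second). With the block 27 fell and 2 rose, against 19.2% and 18.4% of all genes, and the 27 held all 17 of the first comparison (63% of the second list). Both comparisons come from the same fit and share each gene's spread and the replicate sets. The overlap over all genes was not counted, so these overlaps are not independent support. The median log2 fold change was -0.34, against -0.03 over all genes.

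Plk1 stood at 41.6, 37.6, 50.9 and 38.9 CPM after IgE DEX and at 21.2, 18.3, 25.2 and 16.8 CPM after IgE DNP DEX. Its decrease was 51.7% (log2 fold change -1.05 ± 0.19, adjusted p = 0.00412), and it passed without each of the 8 libraries in turn (-1.19 to -0.90). Aurka went from 29.7, 20.8, 34.1 and 24.4 CPM to 14.2, 9.56, 15.3 and 9.99 CPM (-1.15 ± 0.29, adjusted p = 0.026). Kif20b went from 46.3, 36.5, 54.6 and 40.4 CPM to 20.2, 18.1, 30.3 and 22.6 CPM (-0.98 ± 0.26, adjusted p = 0.029). None of the 3 genes overlapped between the treatments, as without DEX. Such separation, and the counts of pairs given for other genes, reflect the values already tested and add no support, whether or not a gene passed. Their shares over all genes were not counted.

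Anln, which encodes the scaffold of the contractile ring, stood at 34.0, 24.4, 40.6 and 29.6 CPM after IgE DEX and at 14.1, 9.99, 18.5 and 11.8 CPM after IgE DNP DEX (-1.25 ± 0.35, adjusted p = 0.039). Cenpf, a large kinetochore protein, went from 54.3, 55.3, 77.1 and 75.8 CPM to 23.6, 42.3, 50.1 and 53.0 CPM (-0.65 ± 0.17, adjusted p = 0.0284). Espl1 went from 38.4, 28.2, 36.9 and 27.8 CPM to 18.1, 18.7, 19.7 and 13.0 CPM (-0.92 ± 0.26, adjusted p = 0.0414). All 3 were separated between the treatments. The calls of Anln and Espl1 were lost without any 1 of the 8 libraries (changes from -1.41 to -1.09 and from -1.06 to -0.77), that of Cenpf without any of 7 (-0.66 to -0.45), Kif20b without any of 6 (-1.07 to -0.86) and Aurka without any of 4 (-1.02 to -0.997), and the count of genes called was 1 to 3 in place of 6.

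Under DEX, the block called both cytokinesis genes and 6 of 8 spindle motors and microtubule binders lower, against 19.2% of all genes. It also called all 3 genes listed here as mitotic kinases, namely Plk1, Aurka and Plk4 (-0.53, block adjusted p = 0.00322). Other kinase genes stood under other roles, and of these the block called Ttk and not Cdk1. Among the 7 genes of chromosome structure it called 4, namely Top2a (-0.58, 0.00114), Smc2 (-0.63, 0.00543), Ncaph (-0.38, 0.0191) and Mki67 (-0.32, 0.0485). Top2a, the topoisomerase that untangles sister chromatids, stood at 234, 166, 240 and 155 CPM after IgE DEX and 138, 129, 142 and 112 CPM after IgE DNP DEX. In mitotic entry Ccnb1 (-0.31, 0.0235), Cdc25b (-0.74, 0.000128) and Foxm1 (-0.62, 0.000931) passed with the block, and so did Cdc20 (-0.29, 0.0358), which stood at 51.6, 47.8, 55.3 and 51.1 CPM after IgE DNP DEX. Ccnb1 stood at 58.7, 50.6, 63.3 and 49.2 CPM after IgE DEX and 45.4, 35.2, 53.1 and 45.8 CPM after IgE DNP DEX, lower in 4 of 4 pairs with overlap between the treatments. Without the block, Smc2 lay between -1.03 (without PEP−/− IgE DNP DEX set 1) and -0.29 (without PEP+/+ IgE DEX set 1) with 1 library left out, and Plk4 between -0.85 (without PEP+/+ IgE DNP DEX set 1) and -0.20 (without PEP−/− IgE DEX set 1). Mki67 lay between -0.47 (without PEP+/+ IgE DNP DEX set 2) and -0.14 (without PEP+/+ IgE DNP DEX set 1). After IgE DNP DEX Mki67 stood at 165, 258, 230 and 298 CPM. Cenpa (0.44, block adjusted p = 0.00432) and Pttg1 (0.44, 0.0277) were the 2 genes that rose, and without the block Pttg1 lay between 0.19 (without PEP−/− IgE DNP DEX set 2) and 0.61 (without PEP−/− IgE DNP DEX set 1).

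Several genes had estimates close to 0, among them Birc5 (log2 fold change 0.02, 95% interval -0.33 to 0.37), Cdca8 of the same passenger complex (0.01, -0.32 to 0.34), Spc24 of the kinetochore (-0.01, -0.49 to 0.48) and Ccnb2 (-0.05, -0.40 to 0.31). The condensin gene Ncapg also had an estimate of -0.01, with a wider interval from -1.16 to 1.14. Cdk1 had a log2 fold change of -0.21 (-0.58 to 0.16). Bub3, a checkpoint protein that binds BUB1 and BUBR1, stood at 122, 108, 118 and 109 CPM after IgE DEX and 162, 112, 126 and 112 CPM after IgE DNP DEX (0.16, adjusted p = 0.501), with the single high value in PEP+/+ set 1, the library with the fewest counts.

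**Figure D3:**
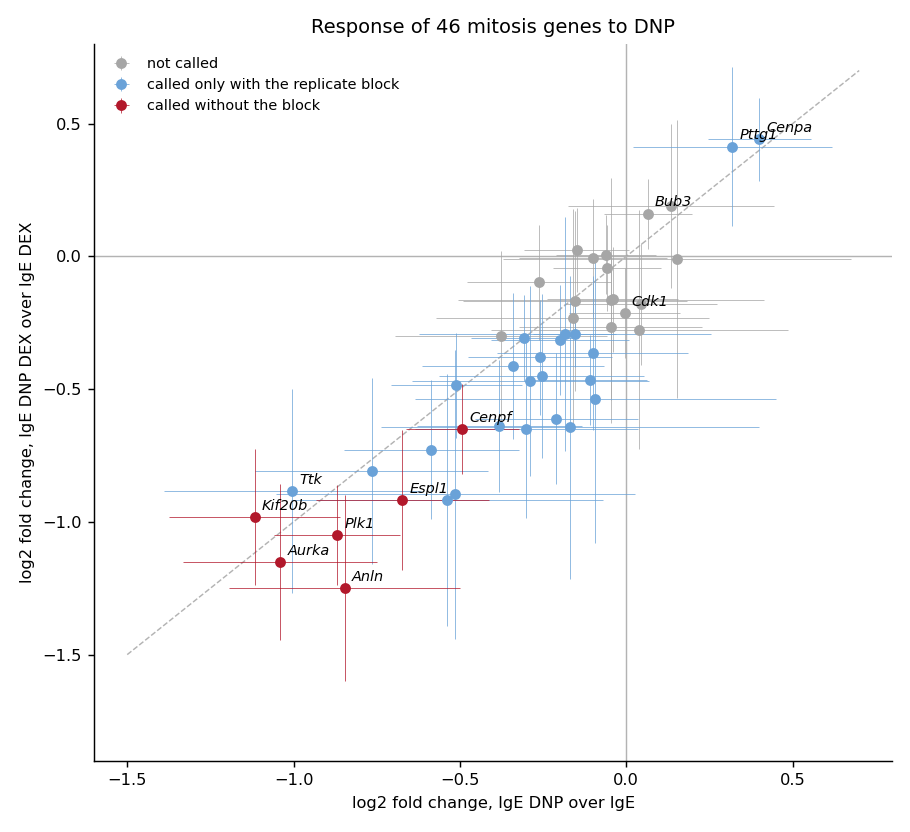
Log2 fold change of each of the 46 genes after DNP without DEX (horizontal) and under DEX (vertical), with standard errors as bars and the dashed line marking equal change. The 6 genes called without the replicate block (red) lie at the lower left, with Plk1 at -0.87 and -1.05, and Cenpa and Pttg1 lie at the upper right.

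Whether DEX changed the response to DNP was tested as an interaction, and no gene of the 46 passed in edgeR, against 0.331% of all genes. At an unadjusted p under 0.05 were 0 of the 46 and 485 of all 13305 genes, and 0 of the 46 passed by DESeq2. With the block 0 of the 46 passed as well, against 1.57% of all genes (3 unadjusted, against 1541 of all genes). For Plk1 the interaction was -0.18 with a 95% interval from -0.76 to 0.40, for Plk4 it was -0.44 (-2.13 to 1.24), and for Anln -0.40 (-1.48 to 0.67). Across the 46 genes the changes by DNP without and under DEX had a Pearson correlation of 0.893 and a Spearman correlation of 0.87, given as a description over genes that share their libraries.

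The third comparison asks what DEX did to these genes over 8 h, averaged over genotype and DNP. One gene of 46, Cdk1, fell and none rose, against 9.61% of all genes lower and 9.77% higher. With the block 13 fell and 1 rose, against 21.8% and 20.8%. The median log2 fold change was -0.14 over the 46 genes and -0.01 over all genes. With 1 library left out the median over the 46 genes lay between -0.25 (without PEP+/+ IgE DNP set 2) and 0.0031 (without PEP+/+ IgE DNP set 1).

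Cdk1 (ENSMUSG00000019942, chromosome 10, 69335146 to 69352938, minus strand) encodes the kinase of mitotic entry. After IgE DEX it stood at 59.9, 54.4, 61.3 and 53.5 CPM and after IgE DNP DEX at 63.3, 43.7, 49.2 and 42.2 CPM, against the values without DEX given above (59.4 to 108 CPM). It was lower with DEX in 8 of 8 pairs of the same genotype, set and DNP status, although the groups overlapped. The log2 fold change was -0.62 ± 0.12, a decrease of 35.0% (adjusted p = 0.00349), and the call held without each of the 16 libraries (-0.69 to -0.55).

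Top2a (-0.51, adjusted p = 0.0646) and Ndc80 (-0.42, 0.056), which links kinetochores to microtubules, were lower in 8 of 8 pairs and passed with the block (0.000178 and 0.00148) and with DESeq2 (0.0361 and 0.0351). Ndc80 stood at 35.6, 29.5, 27.8 and 23.1 CPM after IgE and 22.2, 18.6, 24 and 20.4 CPM after IgE DEX. The block also called Spc24 (-0.38), Foxm1 (-0.37), Nuf2 (-0.24), Cenpa (-0.20), Kif23 (-0.29), Ect2 (-0.45), Smc2 (-0.52), Mad2l1 (-0.30), Bub1 (-0.33) and Ncaph (-0.21). In edgeR without the block and without PEP+/+ IgE DNP set 1, Bub1 was -0.12, Nuf2 -0.06, Ncaph -0.07, Mad2l1 -0.14, Kif23 -0.15, Ect2 -0.23 and Smc2 -0.25. The gene that rose with the block was Prc1, a bundler of antiparallel microtubules (0.26, adjusted p = 0.014), which without the block lay between 0.12 (without PEP+/+ IgE DEX set 1) and 0.44 (without PEP+/+ IgE DNP set 1) with 1 library left out.

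Plk1 (-0.01), Birc5 (-0.04), Bub3 (0.02), Cdc20 (0.03) and Cdc25b (0.05) had estimates near 0, and none passed with or without the block. In IgE DEX cells Cdc25b stood at 44.1, 34.0, 53.2 and 38.7 CPM and Cdc20 at 54.3, 60.1, 65.3 and 73.2 CPM. Birc5 stood at 64.0, 60.6, 58.4 and 60.5 CPM there, against 77.6, 70.4, 58.3 and 60.3 CPM after IgE.

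In cells without DNP, 2 of the 46 genes and 2578 of all 13305 had an unadjusted p under 0.05 for DEX in edgeR. None of the 46 passed there (0 by DESeq2), against 3.98% of all genes lower and 5.4% higher. Cdk1 had -0.52 ± 0.17 there (adjusted p = 0.0887). With the block 3 fell, namely Cdk1 (0.00077), Ndc80 (0.0143) and Spc24 (0.0269), and Prc1 rose (0.41, 0.0108), against 13.8% and 12.9% of all genes. Prc1 stood at 106, 62.8, 90.5 and 63.8 CPM after IgE and 134, 71.4, 139 and 90.7 CPM after IgE DEX, higher in 4 of 4 pairs.

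After DNP 1 gene passed, again Cdk1 (-0.73 ± 0.17, adjusted p = 0.0189), against 4.99% of all genes lower and 5.67% higher. The call was lost without PEP+/+ IgE DNP set 1, PEP−/− IgE DNP set 1, PEP+/+ IgE DNP DEX set 2 or PEP−/− IgE DNP DEX set 2 (-0.66 to -0.57). With the block 8 fell and none rose, against 17.4% and 15.9% of all genes, and these were Cdk1, Top2a, Ndc80, Foxm1, Ect2, Smc2, Ncaph and Bub1. In edgeR without the block, leaving out PEP+/+ IgE DNP set 1 moved Bub1 from -0.55 to 0.014, Ect2 from -0.72 to -0.11, Smc2 from -0.84 to -0.12, Ndc80 from -0.41 to -0.12, Ncaph from -0.36 to -0.04, Foxm1 from -0.51 to -0.26 and Top2a from -0.71 to -0.42. The comparisons of DEX and of DNP share libraries (every treatment enters both kinds), so their values for a gene are not independent.

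**Figure D4:**
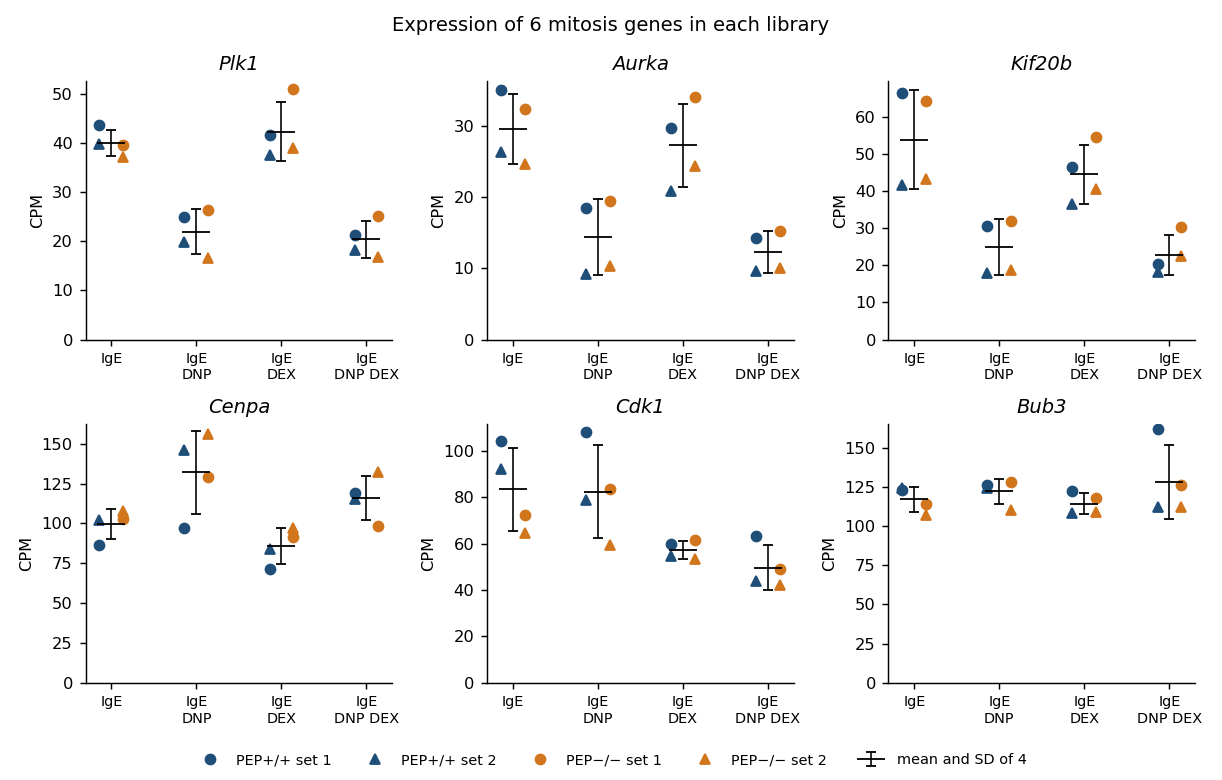
CPM of Plk1, Aurka, Kif20b, Cenpa, Cdk1 and Bub3 in each library by treatment, with colour for genotype, circles for set 1, triangles for set 2, and the mean with SD of the 4 libraries of a treatment in black. Plk1, Aurka and Kif20b separate by DNP, Cdk1 is lower in the treatments with DEX, and Bub3 lies between 107 and 162 CPM throughout.

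The fourth comparison asks whether loss of PEP changed these genes. Averaged over the treatments, none of the 46 passed in edgeR, and 1 passed by DESeq2 (Cenpf, 0.46, adjusted p = 0.0106). In edgeR 5 of the 46 and 1884 of all 13305 genes had an unadjusted p under 0.05, and 1.59% of all genes were called. With the block 7 passed, against 17.4% of all genes. Cenpf (0.45), Cenpe (0.37), Cdc25b (0.25) and Ccnb2 (0.21) were higher in PEP−/− cells, and Spc24 (-0.46), Cdk1 (-0.28) and Plk4 (-0.32) were lower. Without the block, Plk4 lay between -0.55 (without PEP−/− IgE DNP set 1) and -0.08 (without PEP+/+ IgE set 1) and Cdc25b between 0.15 (without PEP−/− IgE DNP set 1) and 0.39 (without PEP+/+ IgE DNP set 1) with 1 library left out. Cenpf was higher in PEP−/− than in PEP+/+ cells in 8 of 8 pairs of the same treatment and set, and Spc24 lower in 8 of 8. The share of all genes that went the same way in every pair was not counted, so these counts add no support. After IgE Cenpf stood at 55.8 and 51.4 CPM in PEP+/+ and 62.4 and 67.3 CPM in PEP−/− cells, and Spc24 at 31.5 and 21.3 CPM against 21.9 and 18.2 CPM. Cenpe, the kinesin of the kinetochore, stood at 50.9 and 37.2 CPM against 58.8 and 48.3 CPM, with overlap between the genotypes, as for Spc24 and unlike Cenpf in this treatment. In edgeR without the block the values were 0.46 ± 0.12 for Cenpf (adjusted p = 0.085) and -0.47 ± 0.16 for Spc24 (0.18).

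The genotypes' responses were compared as interactions. No gene of the 46 and 0% of all genes passed for genotype by DEX in edgeR, and the same held for genotype by DNP. At an unadjusted p under 0.05 were 0 of the 46 in either, against 113 and 53 of all 13305 genes. By DESeq2 0 of the 46 passed. Within each genotype the median response of the 46 genes to DNP without DEX was -0.22 in PEP+/+ and -0.20 in PEP−/− cells, and under DEX -0.32 and -0.41. The response to DEX without DNP had a median of -0.19 in PEP+/+ cells with 39 of 46 genes below 0, and 0.04 in PEP−/− cells with 18 below 0. After DNP the response to DEX had a median of -0.25 in PEP+/+ cells with 40 below 0, and -0.11 in PEP−/− cells with 33 below 0. Over both genotypes the median for DEX lay between -0.20 and 0.08 without DNP, and between -0.41 and 0.08 after DNP, with 1 library left out. The genotype by DEX interaction had a median of 0.21 over the 46 genes and 0.01 over all genes, with no test of the list.

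Other genes of the pathway were counted for comparison, from lists made with the results of these data known. Of 95 further mitosis genes, 13 fell and 1 rose after DNP without DEX, and 13 fell and 1 rose under DEX, where 7.58% and 5.42% of all genes were lower and 9.07% and 7.19% higher. Of the 34 for the spindle and cytokinesis, 9 and 10 fell. These included the cyclin F gene Ccnf (-1.50, adjusted p = 0.0119), the kinesin gene Kifc1 (-0.93, 0.0031) and Troap (-1.38, 0.000573). Of 30 kinetochore genes Ska2 (-1.29, 0.00445) and Hjurp, the chaperone of CENP-A (-0.77, 0.00471), fell and Zwint rose (0.81, 0.00081). Of 13 cohesin genes Sgo2a fell (-1.28, 0.00162), and of 18 genes of the anaphase-promoting complex Anapc16 fell (-0.53, 0.0257).

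Among regulators, the CDK inhibitors split after DNP. Cdkn1a, which encodes p21, rose from 147 to 730 CPM (log2 fold change 2.31, adjusted p = 1e-05) and Cdkn2b rose (3.38, 0.000496), while Cdkn1b, which encodes p27, fell from 97.0 to 48.6 CPM (-0.99, 0.00448) and Cdkn2c fell (-0.86, 0.0474). Under DEX the log2 fold change of Cdkn1a was 1.08 (0.00241), and the interaction was -1.23 (adjusted p = 0.0961, block 0.000744). Myc rose (1.55, 0.00149) and Ccnd3 (-0.48, 0.0309) and the repressor gene E2f8 (-1.40, 0.0432) fell, while Mybl2 (0.07, 0.953), E2f1 (-0.36, 0.324), Ccnd2 (0.81, 0.227) and Ccnd1 (-0.25, 0.877) did not pass. Lin52, a subunit of the MuvB complex, fell (-1.48, 0.00292). Cdkn1c was not among the genes tested.

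For DEX, the S-phase genes gave a different count from the mitosis genes. Of 41 genes of DNA replication 15 fell and none rose, against 9.61% and 9.77% of all genes, with a median log2 fold change of -0.67 against -0.14 for the 46 mitosis genes, and 33 fell with the block, against 21.8% of all genes. E2f1, which activates S-phase genes, fell (-0.97, adjusted p = 0.000864), as did Rbl1 (-1.04, 0.0257), Ccne1 (-1.31, 0.0159) and Cdk6 (-1.27, 0.0117), while Mybl2 (-0.75, 0.135) passed only with the block (5.84e-05). For DNP without DEX 2 of the 41 S-phase genes fell and 1 rose. Between genotypes the S-phase median was -0.64 with 1 gene lower (39 with the block, against 17.4% of all genes in either direction). The median of the 46 mitosis genes was -0.07, and it lay between -0.14 and 0.10 with 1 library left out. The difference between the lists was not tested.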

How the data were processed

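Per the labels and the study's methods, the authors prepared stranded mRNA libraries, aligned paired reads with TopHat2 to GRCm38 with an Ensembl annotation, and deposited raw counts per gene from HTSeq, one table per sample. The strand setting of the counting is not given in the sources used here. Rows that name no gene held 29.1% to 49.6% of the counts and were left out. In every library most of these were reads without a unique alignment, followed by reads outside annotated genes and then ambiguous reads. The row for unaligned reads was empty. Of the 46 genes, 13 share exon bases with another gene in GENCODE M21 (10 with one on the opposite strand, among them Plk1, Cdc20 and Prc1, and 3 on the same strand, Foxm1, Ncapd2 and Top2a), so their reads may be partly uncertain.

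TMM scaling and the quasi-likelihood test of edgeR 4.0.16 (R 4.3.3) were applied to the 16 samples together (8 condition means, 8 residual degrees of freedom, filterByExpr at a minimum count of 10). P-values were adjusted by Benjamini and Hochberg's method over 13305 genes, and an adjusted p under 0.05 made a call. The common biological coefficient of variation was 0.312, and 0.133 with the replicate block. The numbered and the lettered samples were used as the block. Same-set samples deviated together in all 28 pairs of conditions (correlation of deviations from condition means 0.453 to 0.799, median 0.718), so the sets pair the samples. Other fits were DESeq2 1.42.0, its size factors in edgeR, no filter, only the conditions compared, and each sample left out. The code was checked on simulated data. Intervals cover the spread between samples, and reads carry no molecular identifiers.

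Symbols and exon lengths came from GENCODE M21 (96.2% of identifiers matched). The 46 genes and all lists were chosen with earlier results of these data known. All 46 could be named. Values per sample were to be given for Mki67, Ccnb1, Cdk1, Plk1, Birc5, Top2a, Cdc20, Cdc25b and Bub3 and for up to 3 genes with the smallest p-value per direction and comparison, here for the treatments where a result turned on them, and those of Ttk, Anln and Espl1 were added after their values were seen. From other lists called genes (up to 5 per list) and 10 set regulators were named. Promoters shown were the 4 with the smallest p-value for DEX among those with a CHR match, and those of Plk1 and Aurka, added after their values were seen.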

Additional observations from a re-analysis of the deposited data

Results flagged for a closer look

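In the 4 IgE DNP DEX libraries, Cdca8 (borealin, a subunit of the chromosomal passenger complex) stood at 86.2 CPM in PEP+/+ set 1 and at 60.0, 60.5 and 62.9 CPM in the others, and that library lay apart by 88.9% of the range of the 4 samples, above Dixon's critical value. It is the library with the fewest counts, 8612531. This was the only one of 84 gene and treatment groups to be flagged, and chance flags about 1 in 20.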

How the results depend on the processing

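The replicate block moved the counts of genes called to 14 for DEX, 4 for DEX without DNP, 8 for DEX after DNP, 18 for DNP without DEX, 29 for DNP under DEX and 7 between genotypes, and changed no call of the interactions. The block turned 5 small changes of single genes that passed in neither fit, namely Bub1 for DNP without DEX (0.04 to -0.05), Ncapg for DNP under DEX (-0.0095 to 7e-04), Plk4 for DEX (-0.003 to 0.06), Tpx2 for DEX without DNP (0.0057 to -0.02) and Cdc25b for DEX after DNP (-0.02 to 0.0018). Without a filter on low counts 4, 4, 7 and 15 genes were called for DEX, DEX after DNP, DNP without DEX and DNP under DEX. DESeq2 called 3 for DEX and 1 between genotypes. With only the compared conditions 1 was called for DEX without DNP, 0 for DEX after DNP and 1 for DNP without DEX. Leaving out 1 library gave 1 to 3 genes for DEX (3 without PEP+/+ IgE DNP set 2), 0 to 2 for DEX after DNP, 1 to 6 for DNP without DEX (6 without PEP+/+ IgE DNP set 1), 1 to 3 for DNP under DEX and 0 to 1 between genotypes. Apart from the block, the shares of all genes called under these settings are not given here. The shifts are therefore not a result about these genes in particular, and their cause was not tested.

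No gene that was called without the block changed sign. Changes not called there did so when 1 library was left out, with log2 ranges for DEX of -0.043 to 0.19 for Cdc25b, -0.090 to 0.084 for Plk1, -0.14 to 0.052 for Birc5, -0.051 to 0.080 for Bub3 and -0.014 to 0.077 for Cdc20, for DEX after DNP of -0.84 to 0.014 for Bub1 (-0.55 with all libraries, and called with the block), for DNP without DEX of -0.15 to 0.10 for Cdk1 and -0.0045 to 0.11 for Bub3, and for DNP under DEX of -0.17 to 0.21 for Birc5. With DESeq2's size factors Cdk1 for DNP without DEX was 1e-04. With 2 replicates per condition a gene with a small change may not pass, so a missing call does not show that a gene stayed the same.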
